A study of Mus musculus with 24 samples.

Results

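The 10 genes described here encode proteins of cardiac muscle and were measured in RNA of whole mouse lung. They were chosen by symbol, with earlier results of these data known. Myl7, Myl4 and Nppa are genes of atrial muscle, and Myh6, Tnnt2, Tnni3 and Actc1 belong to both heart chambers. Myl3 is a ventricular gene that slow skeletal fibres also use, and Mb and Ankrd1 are shared with skeletal muscle. They are 10 of the 12393 genes that have a probe set of their own on the array. A probe set is a group of short oligonucleotides against the end of a transcript, and 17 probe sets carry the symbol of a single member. A further 2 probe sets are annotated to both Myh7 and Myh6 and were kept apart.

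In mice, a sleeve of cardiac muscle continues from the left atrium along the pulmonary veins into the lung, and its cells use the atrial forms of the contractile proteins. Atrial and ventricular muscle share cardiac actin and the cardiac troponins but differ in their myosin light chains. RNA of whole lung does not show where in the tissue a transcript was made, and fewer cells of a type and less RNA per cell cannot be told apart in it.

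Lungs of untreated male mice aged 8 weeks were profiled on Affymetrix Mouse 430A arrays, with 2 arrays for each of 12 strains. The groups were 9 recombinant inbred (RI) strains (BXH2, BXH4, BXH6, BXH7, BXH8, BXH9, BXH10, BXH14 and BXH19), the F1 hybrid (BXHF1), and the progenitors C3 (C3H/HeJ) and B6 (C57BL/6J). The RI strains were inbred from a cross of the progenitors, so that each carries its own fixed mixture of both parental genomes. Whether the pair of arrays of a strain stands for separate mice is not given, so every p-value below measures only the spread between these arrays, which may be technical.

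Each value is a linear signal, and the number of arrays limits the precision. Over the 24 arrays the median signal lay between 239 and 269.6. The 6 markers of lung epithelium summed to between 53425.4 and 82233.4. Markers of fast skeletal muscle were present at levels that differed widely, with a summed signal of 16 genes between 2106.9 and 53722.2, against 5723.5 to 11252.9 for 7 smooth muscle genes and 725.1 to 8672.5 for 4 fat genes. Of the genes that mark ventricle, Irx4 stayed between 12 and 22.8 on all 24 arrays. Myh7, which slow skeletal fibres also use, was brighter, between 107.6 and 840.6 with a median of 422.35. Myl2, the regulatory light chain of ventricle and also of slow skeletal fibres, lay between 62.8 and 160.3 on 23 arrays. It reached 910.8 on replicate 2 of BXH9, the array that also had the highest summed fast skeletal signal (53722.2).

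The promoters of 4 members are shown as examples of an atrial gene (Myl7), a gene of both chambers (Actc1), the ventricular member (Myl3) and the member with the widest range over the arrays (Nppa). Each window is the 250 bases before the gene's annotated start in RefSeq's table for build GRCm38.p6, read on the gene's own strand. Myl7 (chr11:5896637-5898782, minus strand) encodes the atrial regulatory light chain of myosin, and its window is chr11:5898783-5899032. Actc1 (chr2:114047282-114052875, minus strand) encodes cardiac actin, with the window chr2:114052876-114053125. Myl3 (chr9:110763678-110769802, plus strand) encodes the ventricular essential light chain, with the window chr9:110763428-110763677. Nppa (chr4:148000722-148002074, plus strand) encodes atrial natriuretic peptide, with the window chr4:148000472-148000721. Capitals mark matches, on either strand, to the CArG box bound by serum response factor or to the letters AAGTG, the core of the site of NKX2-5.
Myl7: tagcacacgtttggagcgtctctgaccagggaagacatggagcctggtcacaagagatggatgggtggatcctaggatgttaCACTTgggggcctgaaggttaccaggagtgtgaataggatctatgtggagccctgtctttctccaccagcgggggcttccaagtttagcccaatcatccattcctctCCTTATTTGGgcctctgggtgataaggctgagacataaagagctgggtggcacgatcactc
Actc1: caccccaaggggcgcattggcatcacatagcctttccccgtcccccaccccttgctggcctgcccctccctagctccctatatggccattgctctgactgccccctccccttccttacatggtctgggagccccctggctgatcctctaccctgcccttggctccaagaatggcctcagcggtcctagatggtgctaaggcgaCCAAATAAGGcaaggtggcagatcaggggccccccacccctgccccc
Myl3: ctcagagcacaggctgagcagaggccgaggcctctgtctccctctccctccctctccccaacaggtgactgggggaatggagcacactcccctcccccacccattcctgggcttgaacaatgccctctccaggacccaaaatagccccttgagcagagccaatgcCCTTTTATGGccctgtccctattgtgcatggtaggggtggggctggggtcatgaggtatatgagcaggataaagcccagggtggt
Nppa: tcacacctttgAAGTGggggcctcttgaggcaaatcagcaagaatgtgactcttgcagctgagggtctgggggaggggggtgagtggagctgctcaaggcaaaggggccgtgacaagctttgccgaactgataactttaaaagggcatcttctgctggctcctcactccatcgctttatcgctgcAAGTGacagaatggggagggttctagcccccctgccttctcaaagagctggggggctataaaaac
Myl7, Actc1 and Myl3 each held 1 CArG match, beginning 61, 47 and 85 bases before the start, and no match overlapped another in these 4 windows. Among all 32851 promoter windows of the same length, 1.47% held a CArG match and 40.7% held AAGTG. Of the 10 members, 3 had a CArG match, 5 had AAGTG in at least 1 annotated window, and 2 (Tnnt2 and Ankrd1) had the GATA letters AGATAA, which 9.99% of all windows held. The MEF2 motif was found in 0 of the 10 and in 2.92% of all windows. A match describes letters and is not a bound site.

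The atrial light chain Myl7 was bright in every lung, at 1561.9 or more on all 24 arrays, and its probe set averaged the 95.4th percentile of an array. Its signals on replicates 1 and 2 were 4228 and 2352 in BXH2, 1561.9 and 1731.3 in BXH4, 2835.7 and 2121.8 in BXH6, 2729.9 and 3934.6 in BXH7, 2862.6 and 2876.7 in BXH8, and 6959.4 and 2603 in BXH9. They were 2391.6 and 2794 in BXH10, 2780.2 and 3098.2 in BXH14, 2007.9 and 2808 in BXH19, 2883.5 and 3223.5 in F1, 2560 and 1907 in C3, and 2391.1 and 1733.8 in B6. Replicate 1 of BXH9 stood above every other array, at 1.65 times the next (BXH2 replicate 1), and both arrays of BXH4 were the lowest. With strains ordered by mean signal, from BXH9 over BXH7, BXH2, F1, BXH14, BXH8, BXH10, BXH6, BXH19, C3 and B6 to BXH4, only BXH8 over BXH10 and B6 over BXH4 did not overlap among the 11 neighbouring pairs. On the log2 scale the pooled SD of Myl7 within strains was 0.40 and the SD of the 12 strain means was 0.36. The F test over the 12 strains, from a limma fit of log2(signal + 16) for all probe sets with Benjamini-Hochberg adjustment and a threshold of 0.05, gave F = 2.09 (adjusted p = 0.336).

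Myl4, the atrial essential light chain, followed Myl7. Its bright probe set ranged from 1428.3 (BXH4 replicate 1) to 5250.7 (BXH9 replicate 1) with a median of 2270. BXH9 replicate 2 read 2291.8, near that median, so the 2 arrays of this strain lay further apart than those of any other strain. The SD of Myl4 within strains was 0.38 and that of the strain means 0.39 (log2; F test adjusted p = 0.203). The other Myl4 probe set was dim, between 15.7 and 79.7, and did not track the bright one (r = -0.25 over 24 arrays, a description).

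Nppa, an atrial hormone precursor, varied most among the atrial members. Its signals were 4094.1 and 1481.7 in BXH2, 253.9 and 282.6 in BXH4, 284.9 and 100 in BXH6, 351.8 and 528.2 in BXH7, 1045.5 and 1005.7 in BXH8, and 8715.1 and 143.2 in BXH9. They were 271.2 and 211.2 in BXH10, 220.4 and 1730.4 in BXH14, 174.5 and 317.7 in BXH19, 955.4 and 1078.7 in F1, 544.7 and 346 in C3, and 846.8 and 772.7 in B6. The arrays of BXH9 held both the highest value of Nppa and the next to lowest, a gap of 5.78 on the log2 scale, whereas the pairs of BXH8, F1 and B6 lay close together. Nppa exceeded 1000 on 7 of 24 arrays. Its SD within strains was 1.40 and the SD of the strain means 1.13 (log2), and the F test over 12 strains gave an adjusted p of 0.429. Without BXH9 replicate 1 that adjusted p was 0.0297, and without BXH9 replicate 2 it was 0.00643. Either omission takes the gap within BXH9 out of the spread and leaves that strain with 1 array, assumed to vary like the other strains, so a smaller p follows from the choice.

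Among the genes used in both chambers, Myh6, the alpha heavy chain of cardiac myosin, read 2810.6 and 1737.2 in BXH2, 1273.5 and 2224.6 in BXH4, 2003 and 1396 in BXH6, 1659 and 2254.8 in BXH7, 2517.2 and 2067.1 in BXH8, and 5842.9 and 1830.5 in BXH9. It read 1618.5 and 1773.7 in BXH10, 2068.1 and 2012.9 in BXH14, 1461.6 and 1841.2 in BXH19, 1749.4 and 1777.3 in F1, 1758.8 and 1199.3 in C3, and 1013.2 and 792.1 in B6. The B6 arrays were the lowest for Myh6 and did not overlap those of any other strain, and BXH9 replicate 1 was 2.08 times the next array. The F test over 12 strains gave an adjusted p of 0.249. Myh6 also has a dimmer probe set (53.4 to 358.8) that tracked the bright one with r = 0.78. The 2 probe sets annotated to both Myh7 and Myh6 tracked it with r = 0.92 and 0.75.

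Tnnt2, cardiac troponin T, ranged from 704.2 (B6 replicate 2) over a median of 1753.6 to 5200.5 (BXH9 replicate 1) on its brighter probe set. Tnni3, the inhibitory cardiac troponin, ranged from 555.5 (B6 replicate 2) over 1036.05 to 3003 (BXH9 replicate 1). Actc1, cardiac actin, ranged from 2699.8 (BXH4 replicate 1) over 3965.3 to 7429.2 (BXH9 replicate 1). For each of these genes the same array was the highest, at 2.19 times the next for Tnnt2, 2.01 times for Tnni3 and 1.40 times for Actc1. Adjusted p-values of the F test over 12 strains were 0.209 and 0.340 for the 2 probe sets of Tnnt2, 0.320 for Tnni3 and 0.0968 for Actc1.

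**Figure D1:**
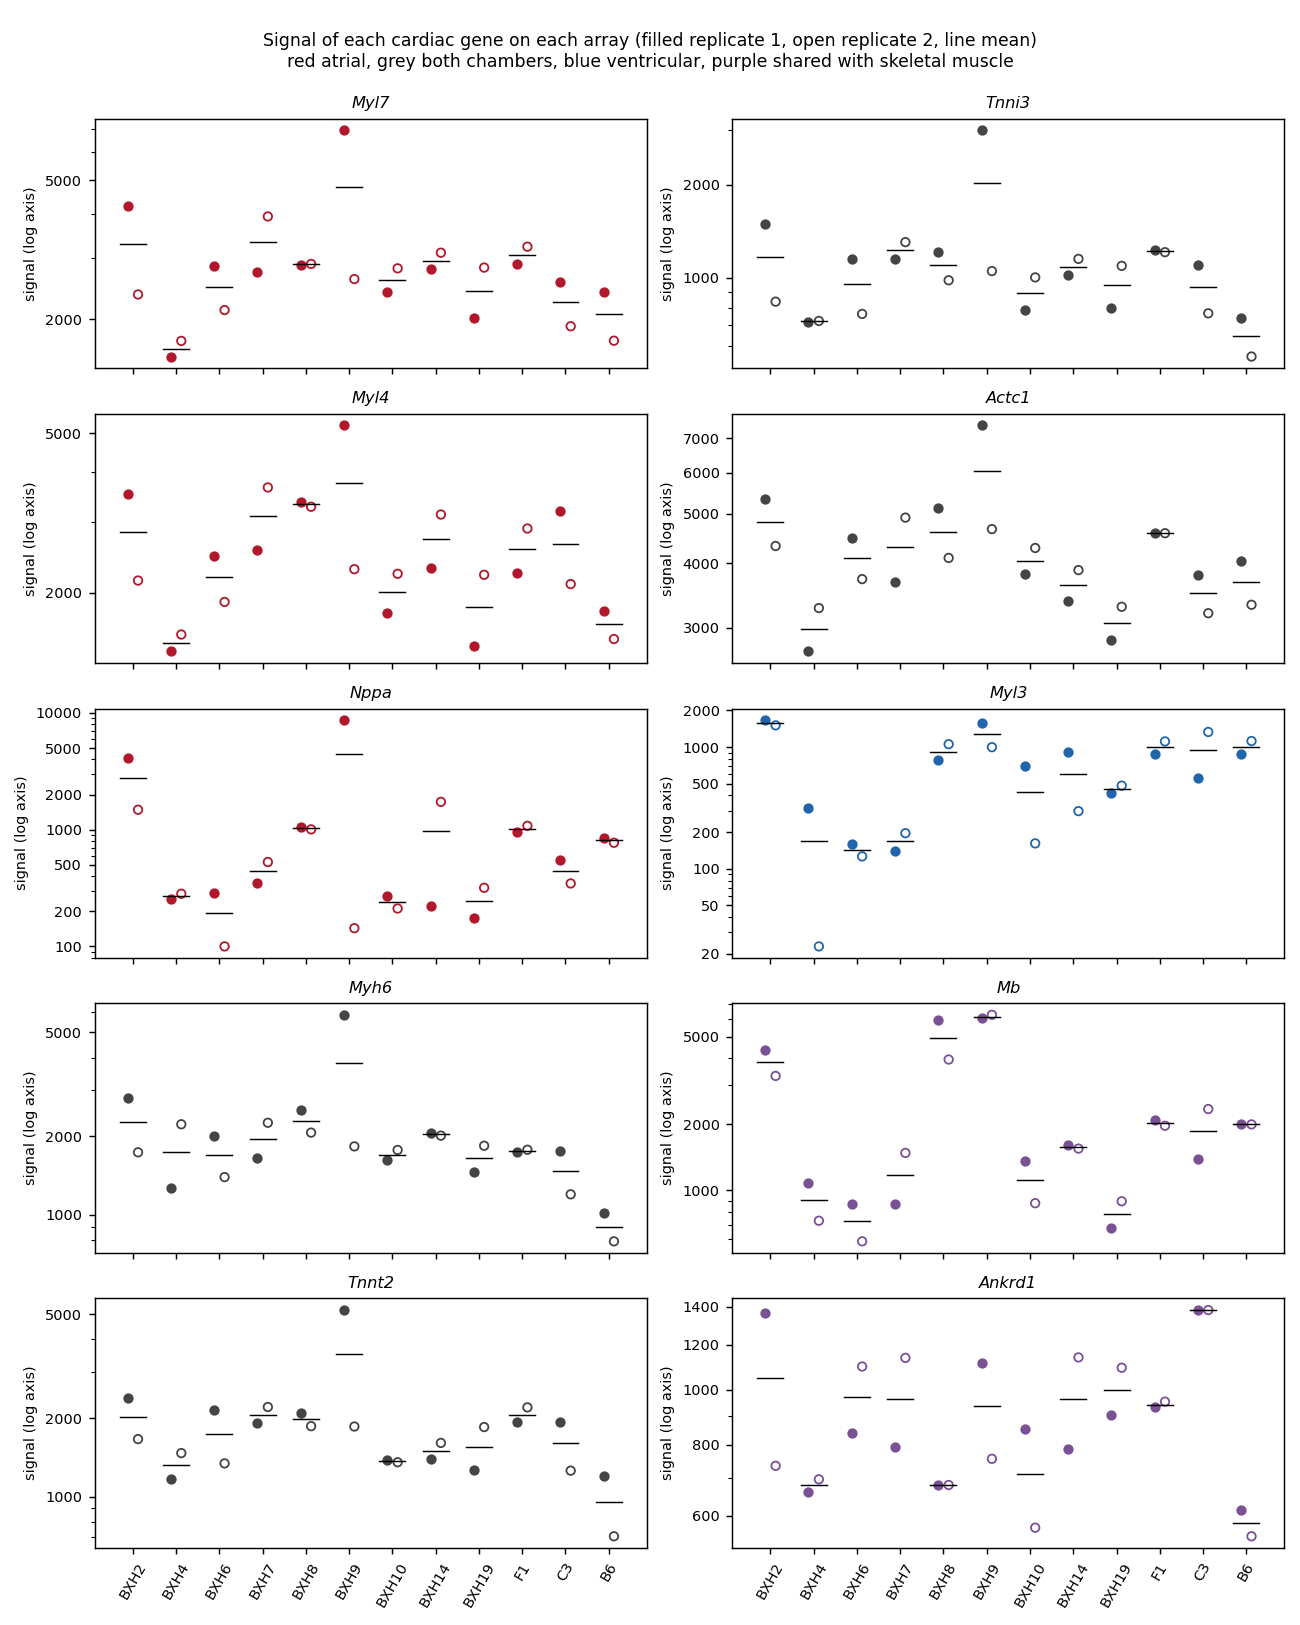
Signal (log axis) of the brightest probe set of each of the 10 genes on each of the 24 arrays, by strain; filled points are replicate 1, open points replicate 2 and lines the mean of both. BXH9 replicate 1 is the highest array for Myl7, Myl4, Nppa, Myh6, Tnnt2, Tnni3 and Actc1, while Mb is high on both arrays of BXH9.

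Myl3, the ventricular member, gave r = 0.30 with Myl7, 0.29 with Myl4 and 0.53 with Nppa over the 24 arrays (a description, since arrays share strains). Its brightest probe set read 1672.6 and 1507.8 in BXH2, 316.2 and 23 in BXH4, 159.7 and 126.3 in BXH6, 139.2 and 195.9 in BXH7, 782.1 and 1055.8 in BXH8, and 1577.2 and 997.6 in BXH9. It read 699.5 and 161.6 in BXH10, 903.8 and 297.5 in BXH14, 419.1 and 481.7 in BXH19, 879.8 and 1113 in F1, 553.5 and 1330.6 in C3, and 881.5 and 1120.8 in B6. All arrays of BXH6 and BXH7 were low for Myl3 and both arrays of BXH2 were high, while the arrays of BXH4, BXH10, BXH14 and C3 each differed by 2.40-fold or more. The 3 probe sets of Myl3 agreed over the 24 arrays (r = 0.95 to 0.98). Its strain means spread more than its replicates, with SDs of 1.27 and 0.88 (log2), although none of the 11 neighbouring pairs in the order of strains was free of overlap.

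Myl3 covered a range of 5.44 on the log2 scale over the 24 arrays, and the atrial members covered 2.14 (Myl7), 1.87 (Myl4) and 6.23 (Nppa), so the atrial genes lay on both sides of it. Over the 9 RI strains the F test passed for all 3 Myl3 probe sets (adjusted p = 0.00962, 0.0196 and 0.0445), and over the 12 strains it passed for 2 (adjusted p = 0.00871 and 0.0222, and 0.0557 for the third). The call at 0.0222 was lost without BXH6 replicate 2 (adjusted p = 0.0538) and without the mean-variance trend (0.0507).

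Mb, myoglobin, the oxygen store of heart and oxidative skeletal fibres, separated the strains best. Its signals were 4368.3 and 3313.4 in BXH2, 1083 and 728.3 in BXH4, 864 and 587 in BXH6, 870.2 and 1481 in BXH7, 5945.9 and 3933.8 in BXH8, and 6055.3 and 6279.5 in BXH9. They were 1358 and 874.9 in BXH10, 1616.4 and 1549.4 in BXH14, 678 and 892.8 in BXH19, 2085.5 and 1967 in F1, 1389.4 and 2343.2 in C3, and 2010.5 and 1995.2 in B6. Every array of BXH9, BXH8 and BXH2 lay above every array of the other 9 strains. The SD within strains was 0.34 and that of the strain means 1.02 (log2), and an estimated 89.4% of the variance of Mb lay between strains. The F test over 12 strains gave F = 23.2 (adjusted p = 1.52e-05). A dim probe set of Mb, between 25.4 and 42.9, showed no such pattern (r = -0.02 with the bright one).

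Ankrd1, a stress-responsive ankyrin repeat protein of the sarcomere and nucleus, was set apart by the progenitors. Its 2 probe sets read 1382.7 and 1381, and 1260.9 and 1146.1, in C3, against 613.4 and 552.3, and 469.4 and 355.6, in B6. The RI arrays read 571.9 to 1362.8 on the brighter probe set and 349.3 to 961.3 on the other, and F1 read 930.8 and 953 on the brighter. The C3 arrays were thus the highest of all 24 on both probe sets and did not overlap B6. C3 minus B6 was 1.22 (SE 0.27, adjusted p = 0.0294) and 1.52 (SE 0.25, adjusted p = 0.00289) on the log2 scale.

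Within this pair of progenitors, 2 of the 17 member probe sets passed, both of Ankrd1 and both higher in C3, and 1.18% of all 22626 probe sets passed in either direction (0.508% higher in C3). The brighter probe set of Ankrd1 lost its call when any 1 array of C3 or B6 was left out (adjusted p = 0.130 to 0.215). The other kept its call without each of these arrays except B6 replicate 2, where the difference was 1.33 (adjusted p = 0.0586). Of the other members, Tnnt2 was 0.75 higher in C3 (SE 0.37, adjusted p = 0.681) and Myh6 0.69 higher (SE 0.39, adjusted p = 0.787), neither past the threshold. Myl7 differed by 0.12 (SE 0.35, adjusted p = 1.00).

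F1 was set against the midparent, the mean of C3 and B6 on the log2 scale. In this comparison 0 of 17 member probe sets passed in limma, and 0.0619% of all probe sets did. At an unadjusted limma p below 0.05 there was 1 of the 17, beside 1447 of all 22626 probe sets, a similar share. It was Tnnt2 on its brighter probe set, with a difference of 0.77 (SE 0.32, unadjusted p = 0.0289, adjusted p = 0.731). Its F1 arrays read 1924.2 and 2196.9, against 1939.1 and 1256.8 in C3 and 1202.9 and 704.2 in B6.

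Over all 12 strains, 4 of the 17 member probe sets passed the F test, those of Mb, Myl3 (2 probe sets) and Ankrd1, beside 5.48% of all 22626 probe sets. Over the 9 RI strains 4 of 17 passed, 1 of Mb and 3 of Myl3, beside 5.44% of all. The Myl3 probe set with adjusted p = 0.0445 missed the threshold with quantile normalization, median centring, an offset of 1 and no mean-variance trend (adjusted p = 0.0508 to 0.0838) and when any 1 of 18 arrays was left out (adjusted p = 0.0513 to 0.101). The 3 atrial genes and the 4 genes of both chambers had no probe set that passed in either test. Leaving out 1 array changed this. Without BXH9 replicate 2, 12 of 17 probe sets passed over the 12 strains, at least 1 for each of the 10 genes, beside 4.87% of all probe sets. Without BXH9 replicate 1, 5 of 17 passed, beside 4.42% of all, the added gene being Nppa.

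The RI strains were then each set against the mean of the other 8. Mb was higher in BXH9 (2.09, adjusted p = 6.89e-05), BXH8 (1.70, adjusted p = 6.71e-04) and BXH2 (1.31, adjusted p = 0.00727). It was lower in BXH6 (-1.38, adjusted p = 0.00319), BXH19 (-1.24, adjusted p = 0.0102) and BXH4 (-1.03, adjusted p = 0.0184), with an SE of 0.22 on the log2 scale throughout. Myl3 was higher in BXH2 (1.87, SE 0.42, adjusted p = 0.0458) and lower in BXH4 (-2.17, SE 0.57, adjusted p = 0.0401), on 1 of its probe sets each. These were 8 calls among 153 tests of a member probe set, and the share of all probe sets that passed was 1.24% in BXH9, 0.765% in BXH8, 0.849% in BXH2, 0.95% in BXH6, 0.72% in BXH19 and 4.15% in BXH4. No member probe set was called in BXH7, BXH10 or BXH14, where 0.813%, 0.773% and 0.897% of all probe sets passed.

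Several of these calls rested on few arrays. The difference of Myl3 in BXH4 was -0.63 (adjusted p = 0.719) without BXH4 replicate 2, the array at 23, and leaving out any 1 of 11 other arrays also ended this call (adjusted p = 0.0506 to 0.0577). The call of Myl3 in BXH2 was lost without either array of that strain (adjusted p = 0.249 and 0.240), and without any 1 of 14 other arrays (adjusted p = 0.0519 to 0.0706). It was also lost with quantile normalization (adjusted p = 0.0554), median centring (0.0519), an offset of 1 (0.0505) and no mean-variance trend (0.0797). The calls of Mb in BXH2, BXH4, BXH6 and BXH8 were each lost without 1 array of that strain, and in BXH19 without either. The call of Mb in BXH9 held without either array (2.12, adjusted p = 0.00478 without replicate 1, and 2.06, adjusted p = 0.00561 without replicate 2). With 1 BXH9 array left out, the remaining one is assumed to vary like those of the other strains, and the gap between the 2 no longer enters the spread. On that footing, without BXH9 replicate 2, BXH9 was also called higher for Nppa (4.20), Tnnt2 (1.64 and 1.81), Myh6 (1.63), Tnni3 (1.59), Myl7 (1.41) and Actc1 (0.94). Without BXH9 replicate 1, Mb was the sole member called in BXH9, and the difference of Nppa had the opposite sign (-1.57).

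**Figure D2:**
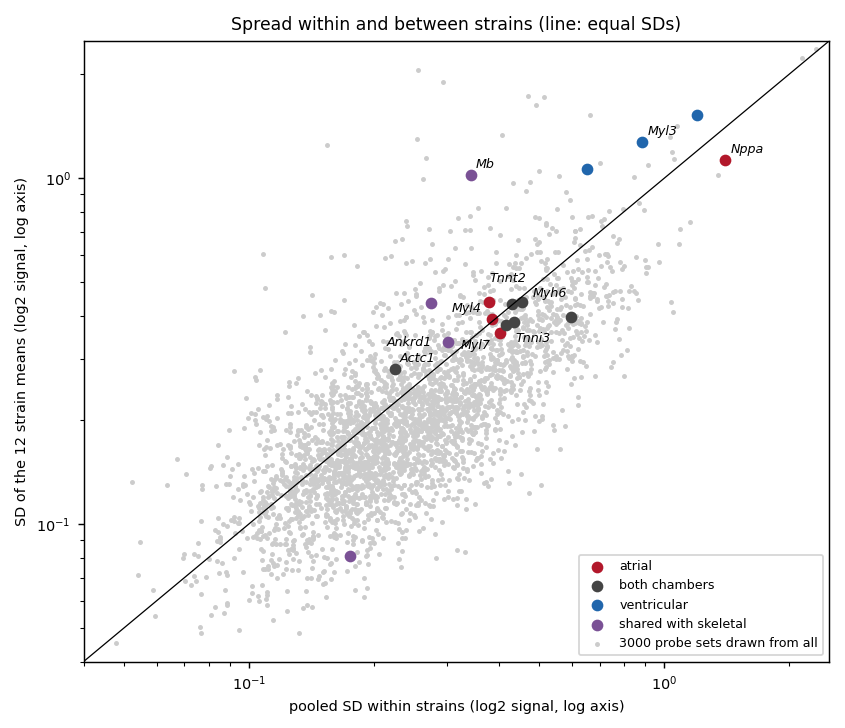
Pooled SD within strains (x) against the SD of the 12 strain means (y), both of log2 signal on log axes, for the 17 member probe sets (coloured; names mark the brightest of each gene) and 3000 probe sets drawn from all (grey). Mb lies far above the line of equal SDs, the Myl3 probe sets lie above it, and Nppa lies below it at the largest SD within strains of the members.

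Set beside the array as a whole, the members spread widely in both senses. The median SD within strains was 0.42 for the 17 member probe sets and 0.24 for all 22626, and the median SD of strain means was 0.43 and 0.20 (log2). The SD between strains exceeded that within strains for 58.8% of member probe sets, 28.7% of all, and 35.9% of the top 60% by mean log2 signal. The 3 dim probe sets, of Myl4, Mb and Myh6, were not among the top 60% of probe sets by mean log2 signal, and the other 14 of 17 were. The estimated share of variance between strains was 22.4% for Myl7, 12.6% for Nppa, 51.5% for Actc1, 61.1% for Myl3 and 89.4% for Mb. The median share was 13.4% for all probe sets and 20.9% for the top 60%, near that of Myl7. These shares are estimates from 2 arrays a strain and are given as a description.

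To see which genes varied together, Myl7 was set against each other member over the 12 strain means and over the 12 differences between replicate 1 and replicate 2, with two-sided permutation tests of 100000 resamples adjusted over 38 relations. Over strain means, Myl7 correlated with Myl4, Myh6, Tnnt2, Tnni3 and Actc1 at r = 0.76 to 0.94 (permutation, adjusted p of 0.018 or less for all 5). Without BXH4 and BXH9, the 2 strains farthest from the median of Myl7, r was 0.68 to 0.91. Over the differences between replicates, r was 0.90 to 0.97 (adjusted p of 3.8e-04 or less), and 0.80 to 0.94 without BXH2 and BXH9. The 2 arrays of a strain therefore differed in these genes as a group.

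Tnni3 stood closest to Myl7 over strain means (r = 0.94, rho = 0.94, permutation adjusted p = 3.17e-04), and Myl4 over the differences (r = 0.97, rho = 0.94, adjusted p = 1.9e-04). In 8 of the 12 strains all 6 genes (Myl7, Myl4, Myh6, Tnnt2, Tnni3 and Actc1) were higher on the same array. These are Myl7 and the 5 genes grouped by their correlation with it in these same arrays. A shared direction follows in part from that choice and is no separate support. Replicate 1 was the higher for all 6 in BXH2, BXH6, BXH9, C3 and B6, and replicate 2 in BXH4, BXH7 and BXH19.

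Nppa followed Myl7 between replicates (r = 0.83, rho = 0.79, permutation adjusted p = 0.00259), with r = 0.53 once BXH2 and BXH9 were left out. Over strain means the relation of Nppa to Myl7 did not pass (r = 0.54, rho = 0.53, adjusted p = 0.101). Ankrd1 gave r = 0.62 between replicates (rho = 0.57, adjusted p = 0.0659) and r = 0.29 over strain means (rho = 0.22, adjusted p = 0.404).

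The ventricular member gave no relation to Myl7 that passed. Myl3 had r = 0.46 over strain means (rho = 0.41, permutation adjusted p = 0.194), which became -0.04 without BXH4 and BXH9, and r = -0.13 between replicates (rho = 0.01, adjusted p = 0.709). Mb had r = 0.60 (rho = 0.52, adjusted p = 0.0758) and r = 0.12 (rho = 0.05, adjusted p = 0.721). Whether the correlation of Myl7 with Myl3 differed from that with Tnni3 or Myl4 was not tested.

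**Figure D3:**
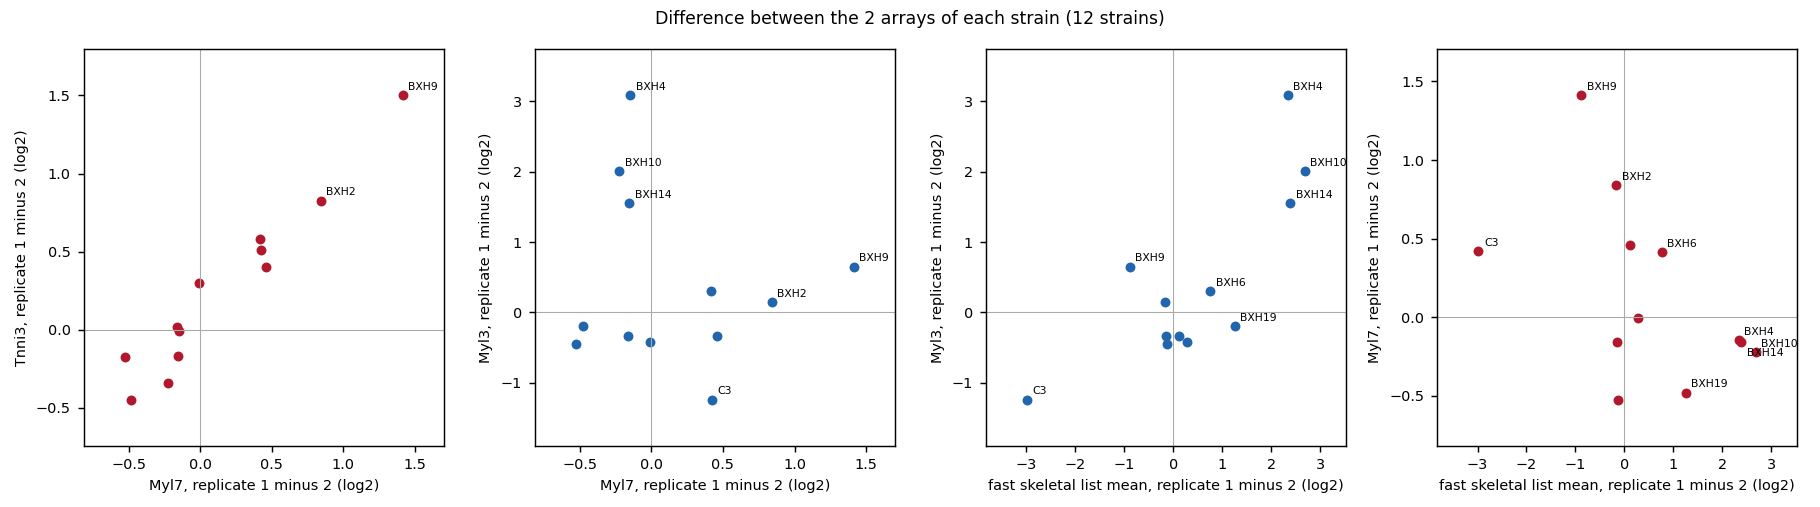
Difference between replicate 1 and replicate 2 (log2) of each of the 12 strains, for Tnni3 and Myl3 against Myl7, and for Myl3 and Myl7 against the mean of the fast skeletal genes; each point is a strain. Tnni3 rises with Myl7, Myl3 rises with the fast skeletal mean, and BXH9 is at the far end for Myl7 and Tnni3.

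Genes of fast skeletal muscle moved with Myl3 and Mb. Over strain means, the mean log2 signal of 16 fast skeletal genes correlated with Mb (r = 0.92, rho = 0.91, permutation adjusted p = 1.9e-04), with Nppa (r = 0.86, rho = 0.86, adjusted p = 0.00232) and with Myl3 (r = 0.84, rho = 0.87, adjusted p = 0.00355). Without BXH8 and BXH9 these were 0.88, 0.85 and 0.83. For Myl7 the same r was 0.40 (rho = 0.27, adjusted p = 0.255).

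Between the 2 arrays of a strain the fast skeletal mean followed Myl3 (r = 0.79, rho = 0.62, permutation adjusted p = 0.00548 for r and 0.0829 for rho), with r = 0.71 without BXH10 and C3. It gave r = 0.58 with Mb (rho = 0.53, adjusted p = 0.0847), r = -0.45 with Nppa (rho = -0.50, adjusted p = 0.194) and r = -0.50 with Myl7 (rho = -0.55, adjusted p = 0.152). For Tnni3 the rank correlation was -0.69 (adjusted p = 0.0436) and r was -0.58 (adjusted p = 0.0896).

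Single strains show the contrast between Myl3 and Myl7. Acta1, skeletal muscle actin, read 3989.8 and 81.9 on replicates 1 and 2 of BXH10, where Myl3 read 699.5 and 161.6 and Myl7 2391.6 and 2794. Acta1 read 4576.9 and 87.7 in BXH14 (Myl3 903.8 and 297.5), 2578.1 and 24.1 in BXH4 (Myl3 316.2 and 23) and 170.2 and 5900.4 in C3 (Myl3 553.5 and 1330.6). The array with more Acta1 had more Myl3 in each of these 4 strains, while Myl7 was lower on it. Other strains went the other way for Myl3. BXH19 read 689.2 and 62.8 for Acta1 and 419.1 and 481.7 for Myl3. In BXH9, Acta1 was highest on replicate 2 (8772.4), where Myl3 was lower (997.6, against 1577.2 on replicate 1). By the summed fast skeletal signal, BXH2 and BXH8 also went the other way (Myl3 1672.6 and 1507.8, and 782.1 and 1055.8). By the same sums, BXH6, BXH7, F1 and B6 had more Myl3 on the array with more skeletal signal.

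Mb and the summed fast skeletal signal were high in the same RI strains. The sums were 31349.7 and 53722.2 in BXH9, 39833.9 and 32471.6 in BXH8, and 29803.8 and 34241.1 in BXH2. They were 3518 and 2396.5 in BXH6, 2345.1 and 2834.3 in BXH7, and 4375.4 and 2106.9 in BXH19, where Mb was low, though not called in BXH7. BXH4, where Mb was also called lower, had unlike sums of 10173.1 and 2243.6. Outside the RI strains, B6 had sums of 25147.7 and 25621.4, with Mb at only 2010.5 and 1995.2. On replicate 1 of BXH9, the array highest for the atrial genes, the fast skeletal sum was lower than on replicate 2.

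With the fast skeletal mean of each array as a covariate, an alternative chosen after seeing the data, 2 of 17 member probe sets passed the F test over the 12 strains, beside 4.01% of all. They were Mb (F = 8.45, adjusted p = 0.00649) and 1 probe set of Ankrd1 (adjusted p = 0.0242). Myl3 did not pass (adjusted p = 0.0622, 0.120 and 0.274), and Myl7 had an adjusted p of 0.307. Of the 8 calls in the RI contrasts 5 held under this covariate, among 6 calls in all. The added call was of the atrial gene Myl4, lower in BXH4 (-0.95, limma adjusted p = 0.0441). The calls of Mb in BXH2 (0.93, adjusted p = 0.144) and BXH19 (-0.97, adjusted p = 0.0587) and of Myl3 in BXH2 (0.91, adjusted p = 0.479) were lost.

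**Figure D4:**
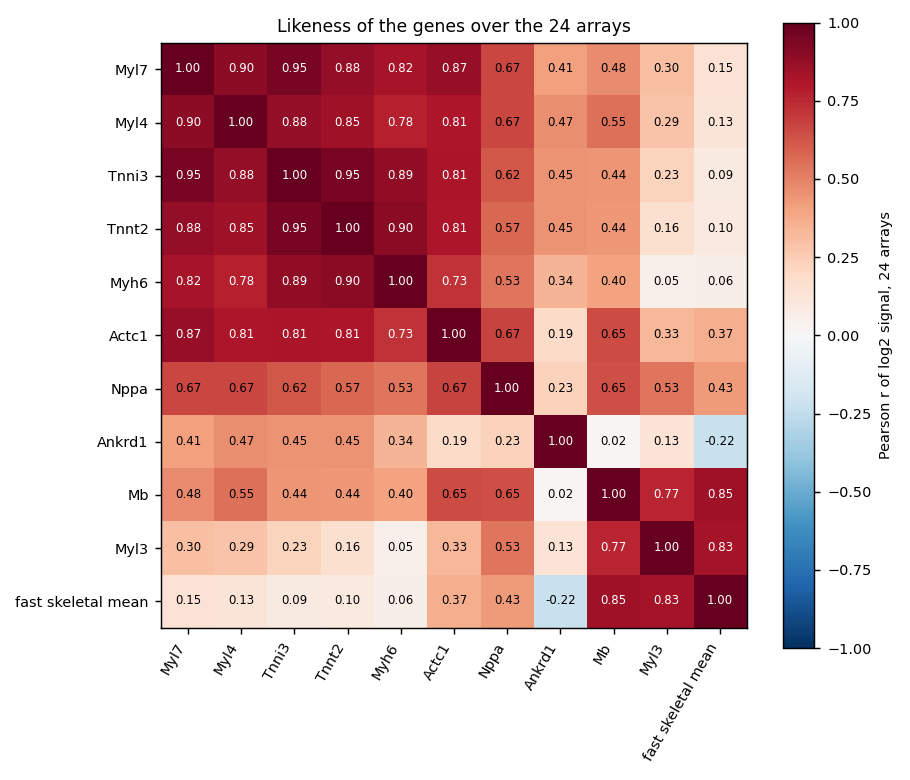
Pearson r of log2 signal over the 24 arrays between the brightest probe sets of the 10 genes and the mean of the fast skeletal genes, given as a description. Myl7, Myl4, Tnni3, Tnnt2, Myh6 and Actc1 form a block with r of 0.73 to 0.95, while Mb, Myl3 and the fast skeletal mean share r of 0.77 to 0.85.

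Likeness over the 24 arrays to all genes outside the 10 members was computed as a description, since the arrays share strains. Members themselves reached r = 0.95 with Myl7 (Tnni3) and 0.90 with Myh6 (Tnnt2). The 10 genes outside the members most like Myl7 were Atp2a2 (r = 0.86), Tnnc1 (0.84), Myoz2 (0.84), Pln (0.83), Ryr2 (0.81), Trdn (0.79), Vldlr (0.76), Acot13 (0.76), Mybpc3 (0.75) and Fgf12 (0.75). Atp2a2 is the calcium pump of cardiac and slow muscle, Pln its inhibitor and Ryr2 the cardiac calcium release channel. Without BXH9 replicate 1 these r values were between 0.60 and 0.76.

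Outside the members, the genes most like Myh6 were Atp2a2 (r = 0.91), Pln (0.89), Ryr2 (0.84), Mybpc3 (0.80), Tnnc1 (0.78), Mycbp2 (0.77), Myoz2 (0.77), Aldh1b1 (0.76), Fabp3 (0.75) and Dsg2 (0.75), and without BXH9 replicate 1 their r was 0.62 to 0.83. Those most like Myl3 were Smtnl1 (r = 0.88), Ckm (0.87), Acta1 (0.87), Myot (0.84), Actn3 (0.84), Tnnc2 (0.83), Apobec2 (0.82), Myl1 (0.82), Atp5o (0.82) and Fabp5 (0.82). Ckm is the creatine kinase of muscle, and Actn3, Tnnc2 and Myl1 belong to fast skeletal fibres. No gene was in the list of Myl3 and also in that of Myl7 or Myh6, and r for the list of Myl3 was 0.80 to 0.88 without BXH9 replicate 1.

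Other genes of cardiac muscle, taken from a list of 31, were all measured. Over the 12 strains 16 of the 31 passed the F test, beside 5.48% of all probe sets, and the median F was 5.18, against 1.29 over all. In BXH9 15 of 31 rose and 0 fell, with a median difference of 0.96 (-0.01 over all probe sets), and 0.729% of all probe sets were called higher. Actn2, the actinin of the Z disc, rose by 1.28 (SE 0.19, adjusted p = 0.00154), Smpx, a small protein of striated muscle, by 1.53 (SE 0.23, adjusted p = 0.00174) and Tcap of the Z disc by 0.96 (SE 0.17, adjusted p = 0.00756). The pump Atp2a2 and the channel Ryr2, both most like Myl7, gave 0.60 (adjusted p = 0.145) and 0.72 (adjusted p = 0.511). Without BXH9 replicate 1 the count in BXH9 was 3, and with the fast skeletal covariate 5.

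In BXH4 11 of the 31 cardiac genes fell and 0 rose (median -0.53, against 0.02 over all), beside 2.34% of all probe sets called lower. Tnnc1, the troponin C of cardiac and slow muscle, fell by 0.91 (SE 0.19, adjusted p = 0.0151) and Smpx by 0.97 (SE 0.23, adjusted p = 0.0254). In BXH8 7 of 31 rose (median 0.57, against 0.01 over all), beside 0.415% of all called higher, with Actn2 at 1.40 (SE 0.19, adjusted p = 8.14e-04). The fast skeletal genes had a median of 1.98 in BXH8 (2 of 16 called higher) and of -0.79 in BXH4 (0 of 16 called), against 2.67 in BXH9 (6 of 16 called higher). In BXH4, 2 of 6 slow skeletal genes were called lower. They were Myl3 and Tnnc1, whose calls are already given among the cardiac genes, so this count adds no separate result. With the fast skeletal covariate the cardiac counts were 1 in BXH8 and 7 in BXH4. Without BXH8 replicate 1 that of BXH8 was 0, and without BXH4 replicate 1 or 2 the count in BXH4 was 1 to 2. For BXH9, BXH8 and BXH4, the share of all probe sets called with the covariate or with an array left out is not given here. A smaller cardiac count under these settings is therefore not read as particular to cardiac genes. The list was chosen with earlier results of these data known, and several of its genes (Actn2, Tcap, Smpx) are also used by skeletal muscle.

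Of 7 further atrial genes 6 were measured and 1 passed the F test over the 12 strains, beside 5.48% of all probe sets. It was Sln, which encodes sarcolipin, a regulator of the calcium pump. Sln read 5533.4 and 2448.2 in BXH9, and 647.7 to 2795.7 on the other 16 RI arrays (F test adjusted p = 0.00637), and BXH9 was higher by 1.56 (SE 0.26, adjusted p = 0.00397). Bmp10, a growth factor of the atria, read 33.3 to 282.5 with its highest value on BXH9 replicate 1. The other measured genes of this list were highest elsewhere. Gja5, an atrial gap junction gene, read 5 to 15.2 and was highest on C3 replicate 1. Kcnj3 read 147.6 to 387.1 and was highest on BXH10 replicate 1. The rest were highest on BXH4 replicate 2.

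Of 3 further ventricular genes 1 passed the F test over the 12 strains, beside 5.48% of all probe sets. It was Myh7, the beta heavy chain of ventricle and slow skeletal fibres. Myh7 read 738.2 and 840.6 in C3, against 219.2 and 294.9 in B6 (1.57, SE 0.25, adjusted p = 0.00261). Both arrays of BXH10 were the lowest, at 107.6 and 145.1 (-1.69 against the other RI strains, SE 0.19, adjusted p = 1.14e-04). Myh7 and Ankrd1 were thus both higher in C3, whereas the difference of Myl3 between C3 and B6 did not pass on any of its 3 probe sets (adjusted p = 0.983 or more).

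Tcap, telethonin of the Z disc, also differed over the 12 strains (F = 23.9, F test adjusted p = 1.24e-05). It read 620 to 2953.6 on the RI arrays, against 725.6 and 729.8 in F1, 608 and 684.7 in C3 and 494 and 453.8 in B6. All but 1 RI array, BXH6 replicate 2 at 620, lay above all arrays of F1, C3 and B6. The RI strains as a group were not tested against F1, C3 and B6.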

How the data were processed

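The deposited table gave each probe set a linear intensity (signal) on every array, made by the authors from Affymetrix Mouse 430A scans of biotin-labelled cRNA, per the labels' protocols. The sources used here name neither the signal software nor its scaling. The mean signal trimmed by 2% at each end was 500.11 to 500.13 on every array, so the values already share a scale and were not normalized further. Strain and replicate number came from the sample labels.

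All 22626 probe sets that are not controls were analysed as log2(signal + 16), a scale that understates changes of dim genes. The platform annotation gave 1 symbol to 20380, several to 691 and none to 1555. One linear model with a coefficient per strain was fitted in limma 3.58.1 under R 4.3.3, using lmFit and eBayes with a mean-variance trend on 12 residual degrees of freedom. P-values were adjusted by Benjamini-Hochberg over all probe sets within each comparison, with a threshold of 0.05. The fit was tested on simulated data. Summaries used Python 3.11.15, pandas 2.3.3 and scipy 1.17.1, and promoters were matched by symbol.

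The members and all gene lists were chosen with earlier results of these data known. Every member probe set is described. Of each list, up to 4 genes with the smallest F test p were open to naming, and the 10 genes most like Myl7, Myl3 and Myh6 are named. Acta1 is among these, and its values beside Myl3 were chosen after they were seen. Alternatives tried were offsets of 1 and 64, median centring of arrays, quantile normalization, the top 60% of probe sets, 1 probe set per gene, no mean-variance trend, only the arrays compared, a replicate block, each array left out, and, added after seeing the data, the fast skeletal mean as a covariate.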

Additional observations from a re-analysis of the deposited data

How the results depend on the processing

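The comparisons have few arrays, so counts of calls moved most when 1 array was left out. The member count over the 12 strains (4 of 17) then ranged from 3 to 12, that over the 9 RI strains (4) from 3 to 10, that of C3 minus B6 (2) from 0 to 2, that of the RI contrasts (8 of 153) from 5 to 17, and that of F1 minus midparent stayed at 0. The counts of 12, 10 and 17 came without BXH9 replicate 2. With the fast skeletal mean as a covariate the counts were 2 over the 12 strains, 1 over the 9 RI strains, 1 for C3 minus B6 and 6 for the RI contrasts. For C3 minus B6 the count was also 1 without the mean-variance trend, and 1 with 1 probe set per gene, where only 1 Ankrd1 probe set is tested. For atrial against ventricular members, the log2 range over the 24 arrays was larger for Myl3 than for Myl7 by 3.29, though not than for the atrial Nppa (5.44 and 6.23), and the difference to Myl7 was 2.21 with an offset of 64, which damps low signals by construction. Quantile normalization, median centring, offset 1 and the top 60% of probe sets kept these counts within 1.5 times. No called result changed sign under the alternatives run, but differences that were not called did. Myl7 in C3 minus B6 was 0.12, and -0.12 with the covariate. Myl3 there was -0.21, and 0.93 with it. Nppa in BXH9 was -1.57 without replicate 1 and 4.20 without replicate 2.

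Replicate numbers did not pair the arrays: over 66 pairs of strains the correlation of deviations between arrays of the same number was -0.24 to 0.25, with a median of -0.01. With a replicate block the counts were 4 over the 12 strains, 4 over the 9 RI strains, 2 for C3 minus B6, 0 for F1 minus midparent and 8 for the RI contrasts.

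When the mean of a gene's probe sets replaced the brightest, the relation of Myl7 to Myl4 between replicates (r = 0.50, adjusted p = 0.172) and to Myh6 over strain means (r = 0.63, adjusted p = 0.07) no longer passed. Both genes have a dim probe set, and the cause was not tested.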
